A study of Mus musculus with 5 samples.

Results

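The comparison set out here is between 2 libraries of mouse blood stem and progenitor cells, one made after knockdown of the long non-coding RNA LncHSC-1 and one made with a control virus. Its members are the features with a mean of at least 5 FPKM over those libraries, where FPKM is fragments per kilobase of transcript, scaled to library size. This floor kept 9146 of the 38166 features in the tables. Of these, 7983 were named genes, 701 carried symbols of predicted genes, clones, microRNAs or small nucleolar RNAs, 459 were unnamed transcript models and 3 were immunoglobulin features. Just above the floor lay Tctn3, Zxdc and Eps8, each at a mean of 5.00 FPKM, and just below it Prpf40b, Kdm1b and Atg4a, each at 4.99.

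All groups were C57BL/6 bone marrow cells. Donor mice had been given 5-FU (5-fluorouracil), a drug that kills dividing cells. Their Sca-1+ cells were transduced with a GFP-carrying knockdown retrovirus and kept for 2 days with stem cell factor at 10 ng/ml and thrombopoietin at 100 ng/ml. The cells sequenced were then sorted as c-Kit+, Sca-1+, lineage-negative and GFP+, a phenotype called KSL. The control group carries the same drug treatment, virus type, culture and sort, and differs by the label Control-KD in place of LncHSC-1-KD. The LncHSC-2-KD group was made in the same way and is given beside the other values as a further library. Each of these groups is 1 library, so every difference below is one between libraries, and the part played by the culture, the virus and the knockdown cannot be told apart. The labels and tables used here do not say which row is the LncHSC-1 transcript, so no value for the knockdown itself is given.

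Long non-coding RNAs are transcripts that are not translated, and some take part in switching genes on or off. The KSL gate holds the stem cells of the blood and their earliest progeny, which can still form lymphoid, myeloid and megakaryocytic cells. Blood cells answer type I and type II interferon through JAK kinases and the STAT transcription factors. These factors drive a large set of antiviral genes through a short DNA element, the interferon-stimulated response element, whose core is a pair of GAAA blocks. B lymphocytes carry a different program, with a surface immunoglobulin receptor, its signalling partners and MHC class II proteins for showing peptides to T cells.

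The estimated depth was 21.0 M reads in the control library, 24.1 M in the LncHSC-1 library and 19.9 M in the LncHSC-2 library. Of the sort markers, Kit, the receptor for stem cell factor, stood at 67.6 FPKM in control, 59.1 in LncHSC-1 and 62.0 in LncHSC-2. Ly6a, which encodes Sca-1, stood at 1010, 1211 and 1025 FPKM. Both sort markers were therefore abundant in all 3 libraries. The T cell receptor complex genes Cd3d, Cd3e and Cd3g had between 0 and 3 reads in each library, and Cd4 and Cd8a went from 28 to 50 and from 22 to 41 reads, control to LncHSC-1. The 4 NK cell markers had 24 reads in control, 36 in LncHSC-1 and 22 in LncHSC-2, with Gzma and Ncr1 at 0 in LncHSC-1. The 6 T cell markers summed to 5.69 FPKM in control, 7.60 in LncHSC-1 and 5.34 in LncHSC-2, nearly all of it Lck, a kinase at 4.91, 6.39 and 4.56.

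The 2 libraries were alike over most of the transcriptome, and what set them apart was mainly higher in LncHSC-1. Differences are given as the log2 ratio of FPKM + 1, LncHSC-1 over control, and a 1.5-fold or 2-fold difference on that scale serves as a rule of size, not as a test. Of the named genes, 99.2% lay within 1.5-fold and 94.0% within 1.2-fold of control, and their median log2 ratio was -0.02. Past 1.5-fold, 55 named genes (0.689%) were higher and 6 (0.0752%) were lower in LncHSC-1. Past 2-fold, 13 (0.163%) were higher and 1 (0.0125%) was lower. By any amount, fewer genes were higher (43.2%) than lower (56.8%), so the excess of higher genes belonged to the far end of the distribution. Over all 9146 features, 137 (1.5%) were at least 1.5-fold higher and 72 (0.787%) lower. Among named genes with a mean of 5 to 10 FPKM, 1.18% were at least 1.5-fold higher, against 0.447% of those with a mean of 100 or more.

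**Figure D1:**
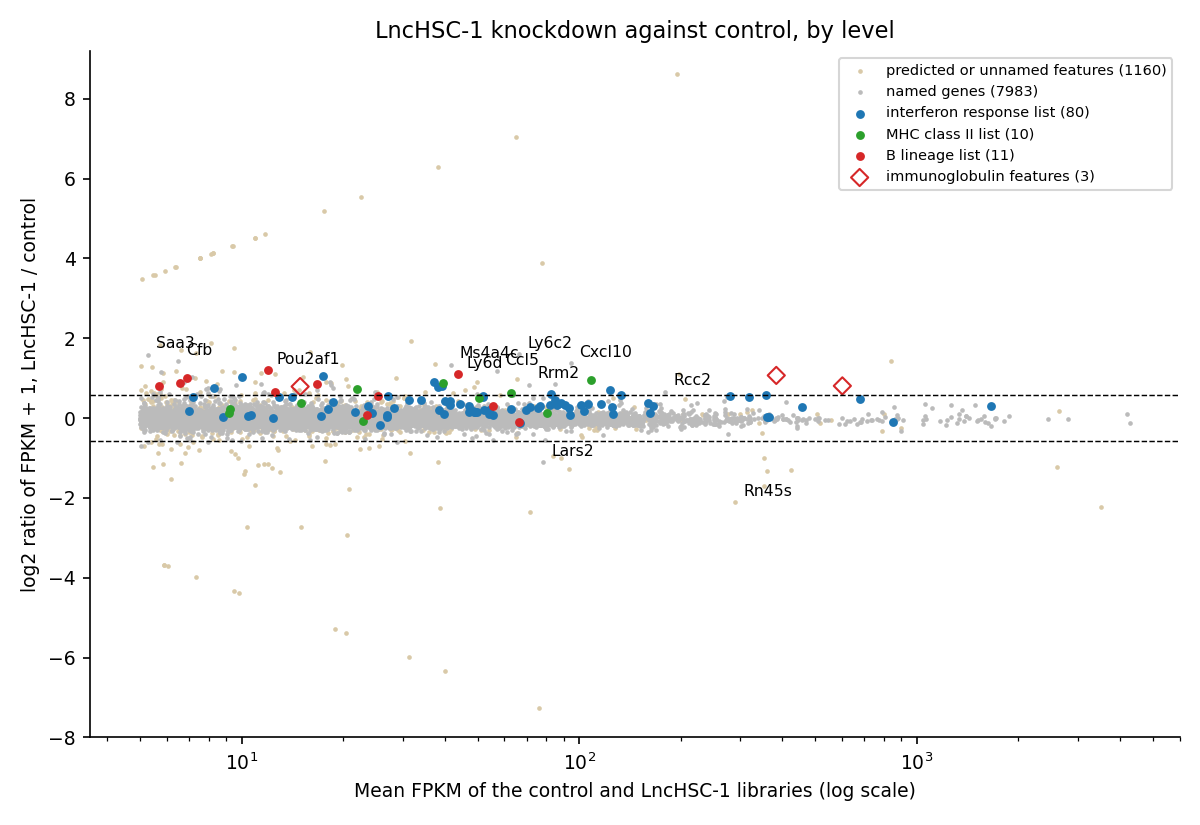
Log2 ratio of FPKM + 1, LncHSC-1 over control, against mean FPKM on a log axis, 1 point per feature; dashed lines mark 1.5-fold. Points of the interferon, MHC class II and B lineage lists lie mostly above 0, and the immunoglobulin features at 0.79 to 1.07, while most of the widest scatter belongs to unnamed features.

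The 55 higher genes included chemokines, interferon-response genes, B cell genes and MHC class II genes. Ly6c2, a surface protein of monocytes and some lymphocytes, had the largest difference, with 32.5 FPKM in control, 101 in LncHSC-1 and 42.3 in LncHSC-2. Its log2 ratio was 1.60, and the 95% counting interval of its read ratio ran from 1.49 to 1.77. Such intervals are exact binomial intervals of the read ratio at the libraries' relative depth. They hold no pseudocount, so for low genes they sit farther from 0 than the log2 ratio of FPKM + 1, and they cover counting error only. Saa3, an acute-phase serum amyloid, was at 2.14, 8.42 and 3.64 FPKM in the same order of libraries, from 20, 92 and 32 reads. Its log2 ratio of 1.59 therefore rests on few reads, with an interval from 1.27 to 2.76.

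Chemokine genes of the interferon response were among the highest. The chemokine gene Cxcl10, whose product draws in CXCR3-bearing lymphocytes, stood at 52.2 FPKM in control, 137 in LncHSC-1 and 56.4 in LncHSC-2 (log2 ratio 1.38, counting interval 1.30 to 1.49). Cxcl11, a ligand of the same receptor, stood at 3.23, 8.35 and 3.33 FPKM (log2 ratio 1.15). In the deposited annotation the Cxcl10 and Cxcl11 features have the same bounds (mm9 chromosome 5, 92760867 to 92843653), so how reads were divided between them is uncertain. Ccl5, also called RANTES, stood at 34.5, 79.5 and 32.4 FPKM (log2 ratio 1.18, interval 1.02 to 1.39). In the LncHSC-2 library these genes lay near control, at log2 ratios of 0.11, 0.03 and -0.09. The other 5 chemokine members lay between -0.06 for Ppbp and 0.51 for Ccl3, and the median of all 8 was 0.45.

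Interferon response genes were shifted upward as a body. The list of antiviral effectors, sensors and signalling proteins had 88 genes in the tables, of which 80 passed the floor, and 76 of these 80 were higher in LncHSC-1 against 43.2% of all named genes. Their median log2 ratio was 0.30, beside -0.02 for all named genes, and 8 of the 80 were at least 1.5-fold higher, beside 0.689%. The 80 genes summed to 8387 FPKM in control, 10254 in LncHSC-1 and 8631 in LncHSC-2. For most of them the difference was thus a moderate one, below 1.5-fold.

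Effectors as a list stood farther from control than the list of sensors and signalling genes. Over the 53 effectors the median was 0.32, and over the 27 sensors and signalling genes it was 0.14. Ifit3, an antiviral partner of the RNA-binding Ifit proteins, stood at 25.6 FPKM in control, 48.5 in LncHSC-1 and 28.1 in LncHSC-2 (log2 ratio 0.89). Mx1, a GTPase that blocks influenza virus, stood at 28.3, 50.2 and 31.9 FPKM (log2 ratio 0.80). Apol9a and Apol9b, interferon-induced apolipoprotein L genes, had log2 ratios of 1.05 and 0.77. These are near-identical copies, and the way reads common to both were counted remains not given in the sources used here. Isg15, a ubiquitin-like modifier at 286 FPKM in control, had a log2 ratio of 0.58 just short of 1.5-fold, with 428 FPKM in LncHSC-1 and 331 in LncHSC-2. Only Ifitm1, which restricts viral entry, was lower among the effectors, at -0.09.

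Among the sensors, Zbp1, which detects Z-form nucleic acid, stood at 93.7, 154 and 99.6 FPKM in control, LncHSC-1 and LncHSC-2 (log2 ratio 0.71). Irf7, the transcription factor that amplifies interferon production, stood at 261, 377 and 265 FPKM (log2 ratio 0.53). Tlr7, an endosomal RNA receptor, had the same log2 ratio of 0.53. The interferon receptor genes on the list, Ifnar1, Ifnar2, Ifngr1 and Ifngr2, were at 0.01, 0.14, -0.17 and 0.06, and the kinase genes Jak1 and Tyk2 at -0.11 and 0.05. Interferon-inducible GTPases, which act on the vacuoles of intracellular pathogens, were all higher: 11 of 11 members, beside 43.2% of named genes, with a median of 0.38 and a range from 0.20 for Irgm2 to 0.61 for Gbp5. Gbp3 was the other GTPase past 1.5-fold, at 39.6, 60.2 and 37.9 FPKM in the same order.

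Class I antigen presentation followed at a smaller size. Of 25 members 21 were higher, beside 43.2% of named genes, with a median of 0.22, and none reached 1.5-fold in either direction. H2-Q6, a non-classical class I gene, was farthest, at 60.7 FPKM in control, 85.7 in LncHSC-1 and 68.4 in LncHSC-2. The class I genes are a family of close copies, so single values within it are uncertain. H2-K2, a class I-like gene outside the list, was at 5.63, 9.14 and 7.05 FPKM (log2 ratio 0.61).

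**Figure D2:**
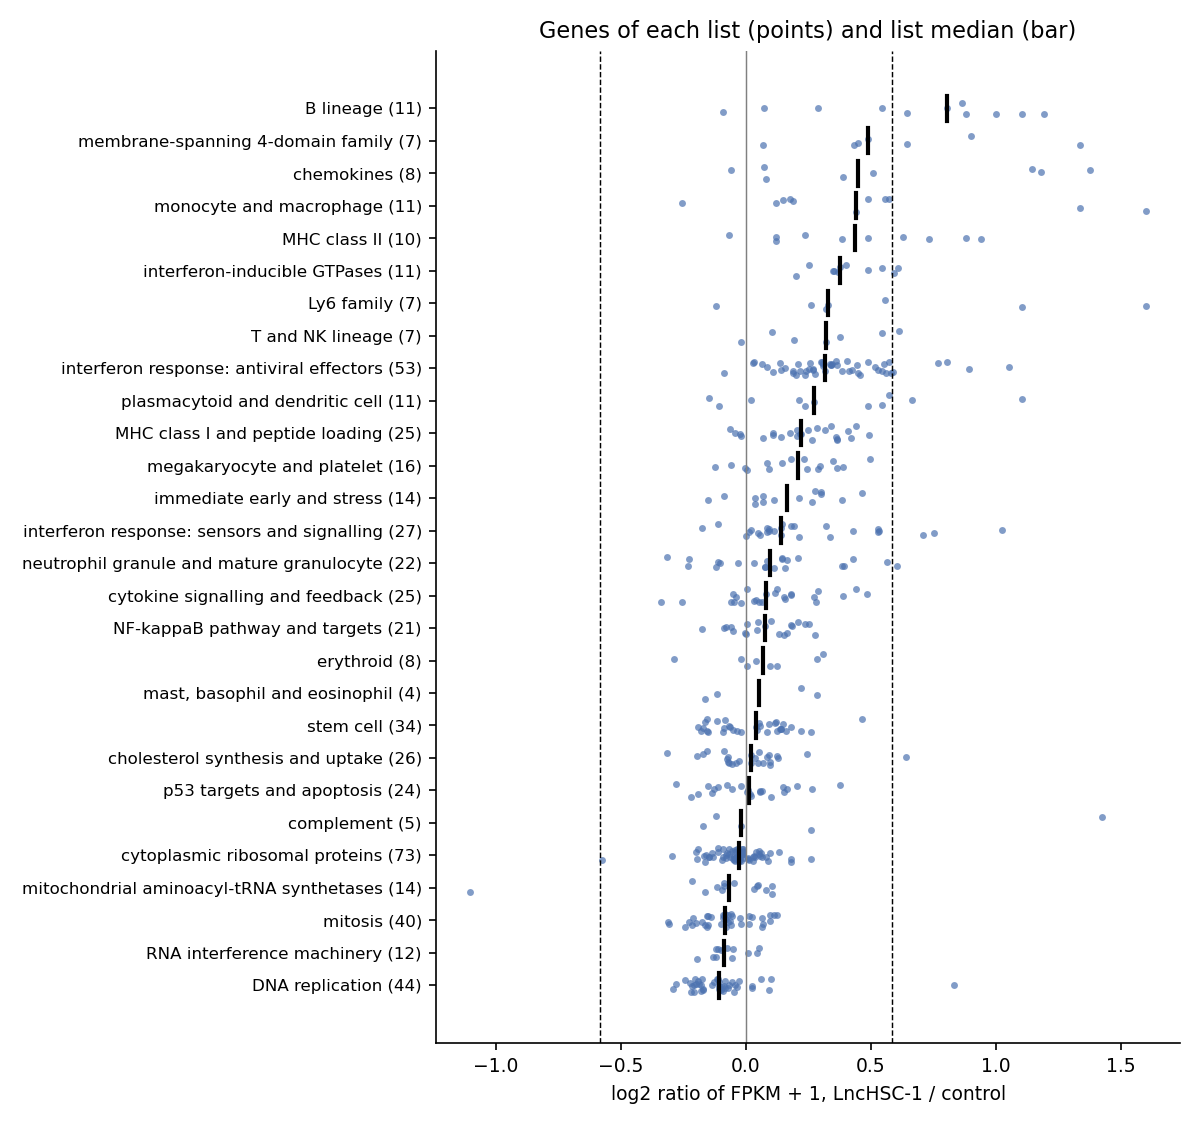
Log2 ratio of FPKM + 1, LncHSC-1 over control, for each gene (points) of the gene lists with at least 4 members above the floor (number in parentheses), with list medians as bars and dashed lines at 1.5-fold. The B lineage list lies highest, with a median of 0.80, and the DNA replication list lowest, at -0.11, with Rrm2 as its outlying point.

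Promoter sequence was set beside these values because the interferon-stimulated response element is short enough to search. Promoters from RefSeq (build GRCm38.p6) were matched by symbol for 6524 of the 7983 named members, each as windows of 250 bases before to 50 after a transcript start. The core searched was GAAANNGAAA on both strands, with overlapping matches each counted. It occurred in 3.99% of the 27025 genes of the promoter table and in 4.18% of the matched named members. Of the 41 matched genes that were at least 1.5-fold higher in LncHSC-1, 13 held it, or 31.7%. Of the 65 matched interferon list members 29 held it, or 44.6%, and of the 8 matched interferon-inducible GTPases all 8 did. No match was found among the 34 matched DNA replication members or the 4 matched genes at least 1.5-fold lower.

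The following stretches are shown because they hold the core in genes that were at least 1.5-fold higher. They are read 5′ to 3′ on the gene's own strand with the searched core in capitals. TTTCNNTTTC is the same core on the opposite strand.
Cxcl10 (chr5:92349086-92349109): cgctttgGAAAGTGAAActtacct
Ifit3 (chr19:34583366-34583389): tggtaagTTTCACTTTCctcttct
Ifit3, further match (chr19:34583400-34583423): aagtctgTTTCAGTTTCtactttc
Ifit1 (chr19:34640778-34640801): gcttcagTTTCACTTTCcagtctc
Ifit1, further match (chr19:34640797-34640820): gtctcagTTTCAGTTTCtcactgc
Apol9a (chr15:77411123-77411146): gtgagacTTTCAGTTTCcatttcc
Gbp3 (chr3:142559992-142560015): gacacagTTTCAGTTTCtatttcc
Ctss (chr3:95526758-95526781): tttaaatGAAACCGAAAtgaaagt
Pydc3, listed by RefSeq as Ifi208 (chr1:173673600-173673623): ctctgagGAAATCGAAAgctatga
Saa3 (chr7:46715785-46715808): atcttctGAAAGAGAAAttatggg

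Ifit3 and Ifit1 each carried the core in the letters TTTCACTTTC and again in the letters TTTCAGTTTC further along. The 24-base stretch of Pydc3 was found letter for letter in 2 further genes of the same chromosome 1 cluster, Pydc4 and Gm4955. In the same way Apol9b repeated the stretch of Apol9a, and the gene called I830012O16Rik in the tables (Ifit3b in RefSeq) repeated both stretches of Ifit3. A match describes letters in a window and is neither a binding site nor a cause.

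Genes with several matches in 1 window were farther from control than genes with 1. The 6251 named members without a match had a median log2 ratio of -0.02, and 0.448% of them were at least 1.5-fold higher. The 246 with 1 match had a median of 0.00 with 3.25% at least 1.5-fold higher. The 27 with 2 or more matches had a median of 0.30 with 18.5% at least 1.5-fold higher. A further motif searched in these windows, the gamma-activated site TTCNNNGAA, was in 8.15% of matched named members and in 1 of the 41 higher genes. It was in 14 of the 65 matched interferon list members and in 5 of the 8 matched interferon-inducible GTPases. Of the 8 matched B lineage and 8 matched MHC class II members, 0 held it. The octamer ATGCAAAT, searched for its role in B cell promoters, was in 1.46% of matched named members and in 2 of the 41 higher genes.

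The octamer matches were in the promoters of Ms4a4c and Blnk, shown as the stretch around each match with ATTTGCAT, the octamer on the opposite strand, in capitals.
Ms4a4c (chr19:11407483-11407506): aaagtgttATTTGCATttcaaaat
Blnk (chr19:40994336-40994359): tggaagggATTTGCATgcccaata

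**Figure D3:**
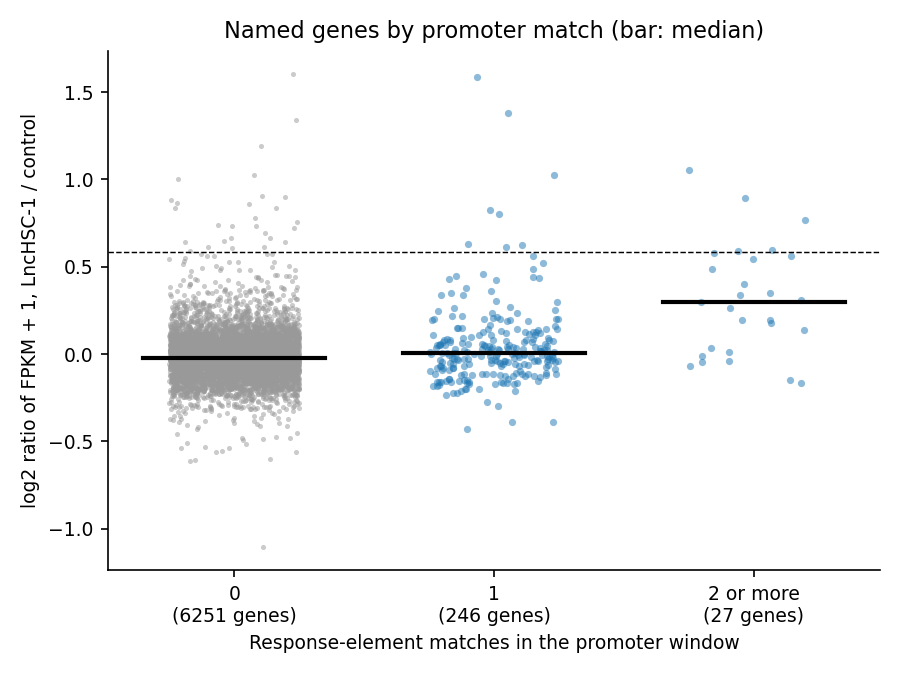
Log2 ratio of FPKM + 1, LncHSC-1 over control, of named genes with 0, 1 or at least 2 matches of the response-element core in a promoter window; points are genes, bars are medians and the dashed line marks 1.5-fold. The medians are -0.02, 0.00 and 0.30.

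B lineage genes had the highest median of the lists with at least 4 members above the floor of 5 FPKM. With a floor of 20 FPKM, which kept 5 of them, their median was 0.29, below MHC class II genes at 0.63. Of 26 genes 11 passed the floor, with a median log2 ratio of 0.80, and 10 of the 11 were higher and 7 at least 1.5-fold higher, beside 0.689% of named genes. Pou2af1, the B cell coactivator that partners octamer-binding factors, stood at 6.89 FPKM in control, 17 in LncHSC-1 and 8.0 in LncHSC-2 (log2 ratio 1.19, counting interval 1.14 to 1.47). Blnk, the adaptor of the B cell receptor, stood at 4.26, 9.53 and 4.75 FPKM (log2 ratio 1.00). Values for both genes in LncHSC-2 were near control.

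The receptor-associated chain gene Cd79a stood at 11.6, 22 and 11.5 FPKM in control, LncHSC-1 and LncHSC-2 (log2 ratio 0.86). Ms4a1, which encodes CD20, had a log2 ratio of 0.64, and Fcrla, a B cell Fc-receptor-like protein, one of 0.80. Ly6d, found on early B cell and plasmacytoid precursors, stood at 27.5, 60.3 and 29.7 FPKM (log2 ratio 1.10, interval 0.96 to 1.31). Outside the list, Tnfrsf13c, the receptor for the survival factor BAFF, was at 5.90, 10.8 and 6.23 FPKM, and the inhibitory receptor gene Fcgr2b at 6.24, 11 and 7.15. Btk, a kinase that progenitors and myeloid cells also express, was the 1 member on the lower side, at -0.09.

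The 15 B lineage genes under the floor held 903 reads in control, 1827 in LncHSC-1 and 924 in LncHSC-2, a pooled read ratio of 0.80 on the log2 scale (interval 0.68 to 0.91), beside 0.04 for all named genes under the floor. Pax5, the factor that commits cells to the B lineage, had 23 reads in control and 77 in LncHSC-1. Of the genes of the earliest B cell steps, Dntt, which edits immunoglobulin joints, was at 168 and 199 reads, with an interval of -0.28 to 0.33. Ebf1, an early B cell factor, was at 24 and 36 reads, Rag2 of the recombinase at 17 and 14, and the surrogate light chain genes Vpreb1 and Igll1 at 8 and 6 and at 0 and 1. For Ebf1, Vpreb1 and Igll1 the counting intervals were wide enough to include both 0 and the pooled ratio. The summed level of the 8 defining B cell markers was 47.8 FPKM in control, 80.1 in LncHSC-1 and 49.1 in LncHSC-2, and all 8 except Igll1 were above 0 in control. These markers of another cell type moved with the comparison, and their part in the other differences was not tested. In bulk RNA, more cells of a type cannot be told apart from more RNA per cell.

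Immunoglobulin features, chosen after their values were seen, moved with the B lineage genes. The kappa light chain feature on chromosome 6 stood at 247 FPKM in control, 520 in LncHSC-1 and 259 in LncHSC-2 (log2 ratio 1.07, from 3979, 9748 and 3916 reads). A lambda light chain feature on chromosome 16 stood at 10.7, 19.2 and 10.9 FPKM (log2 ratio 0.79). The heavy chain feature on chromosome 12 stood at 438, 766 and 387 FPKM, a log2 ratio of 0.81. Its estimated reads, 3277 and 5620, gave a smaller ratio of 0.56 (interval 0.49 to 0.62), so its size depends on the measure. The plasma cell gene listed as 2010001M09Rik (Mzb1), among the predicted symbols, stood at 20.8, 54.3 and 27.8 FPKM (log2 ratio 1.34).

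MHC class II genes were higher in 9 of 10 members, beside 43.2% of named genes, with a median of 0.44, and 4 of them were past 1.5-fold, beside 0.689%. Cd74, the invariant chain that guides class II proteins, in a feature merged with Mir5107, stood at 73.7 FPKM in control, 143 in LncHSC-1 and 83.0 in LncHSC-2 (log2 ratio 0.94). H2-Aa, an alpha chain, stood at 27.4, 51.4 and 29.5 FPKM (log2 ratio 0.88), and H2-Eb1, a beta chain, had a log2 ratio of 0.73. The protease gene Ctss, which trims the invariant chain, stood at 49.0, 76.3 and 48.2 FPKM (log2 ratio 0.63). The peptide exchanger gene H2-DMa and H2-Ob, which encodes a subunit of its inhibitor, were each at 0.12, and the reductase gene Ifi30 at -0.07. Ciita, the master regulator of the class, lay under the floor with 110 reads in control and 207 in LncHSC-1.

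Myeloid genes gave a mixed picture. Of 11 monocyte and macrophage members 10 were higher, beside 43.2% of named genes, with a median of 0.44, and the 2 past 1.5-fold were Ly6c2 and Ms4a4c. Ms4a4c, a membrane-spanning protein, stood at 23.2, 60.3 and 24.2 FPKM in control, LncHSC-1 and LncHSC-2 (log2 ratio 1.34, interval 1.27 to 1.49). Irf8, the factor that directs monocyte and dendritic cell fate, had a log2 ratio of 0.57. The defining markers of monocytes and macrophages differed among themselves. Csf1r was at 2.24 and 2.31 FPKM in control and LncHSC-1, Ccr2 at 3.04 and 3.25, Itgam at 4.65 and 4.75, and Emr1, which encodes F4/80, at 2.79 and 2.82. Ly6c1, close kin of Ly6c2, was at 7.73 and 11.9 FPKM, and Cd14, a receptor for bacterial lipopolysaccharide, went from 17 to 38 reads (interval 0.08 to 1.86). The 7 measured monocyte markers summed to 53.4 FPKM in control, 126 in LncHSC-1 and 64.0 in LncHSC-2, most of it from Ly6c2, and none was at 0.

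Neutrophil genes had a median of 0.10 over 22 members, and only Hp, the haemoglobin scavenger haptoglobin, was past 1.5-fold, from 124 reads in control and 238 in LncHSC-1. Of these 22 members, S100a9 and Mpo were at -0.32 and -0.23. The 7 defining neutrophil markers summed to 92.8 FPKM in control, 83.2 in LncHSC-1 and 81.4 in LncHSC-2. The 3 of them above the floor were all lower in LncHSC-1 than in control. The 4 under it held 223, 222 and 115 reads in the same order of libraries. Genes of the plasmacytoid and dendritic cell list were on the higher side in 9 of 11 members, beside 43.2% of named genes (median 0.27). Farthest were Ly6d and Ly86, a partner of the toll-like receptor homologue RP105, with Ly86 at 0.67. The 2 lower members were Flt3 and Runx2, at -0.15 and -0.11, and Tcf4 was at 0.02. The 6 defining dendritic cell markers, Flt3 among them, summed to 27.2 FPKM in control, 25.6 in LncHSC-1 and 27.3 in LncHSC-2. Siglech, which defines plasmacytoid cells, lay under the floor with 126 reads in control and 198 in LncHSC-1. Of the complement list, Cfb, a factor of the alternative pathway, stood at 3.07, 9.92 and 2.95 FPKM in the 3 libraries (201, 758 and 183 reads, log2 ratio 1.43). The other 4 complement members above the floor lay between -0.17 and 0.26. The 14 complement genes under it held 744 reads in control, 1385 in LncHSC-1 and 679 in LncHSC-2, a pooled read ratio of 0.68 on the log2 scale (interval 0.55 to 0.81). Among them C3, the central complement component, had 274 and 534 reads in control and LncHSC-1, and C4b had 95 and 291.

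Genes of the T and NK lineage were higher in 6 of 7 members, beside 43.2% of named genes, with a median of 0.32. The 1 member past 1.5-fold was Hcst, a signalling adaptor of NK receptors, at 12, 18.8 and 25.6 FPKM in control, LncHSC-1 and LncHSC-2. Thy1, a surface glycoprotein of T cells, stood at 6.44, 9.87 and 5.55 FPKM (log2 ratio 0.55). The 23 genes of this list under the floor held 346, 618 and 348 reads, a pooled read ratio of 0.62 on the log2 scale (interval 0.42 to 0.81).

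**Figure D4:**
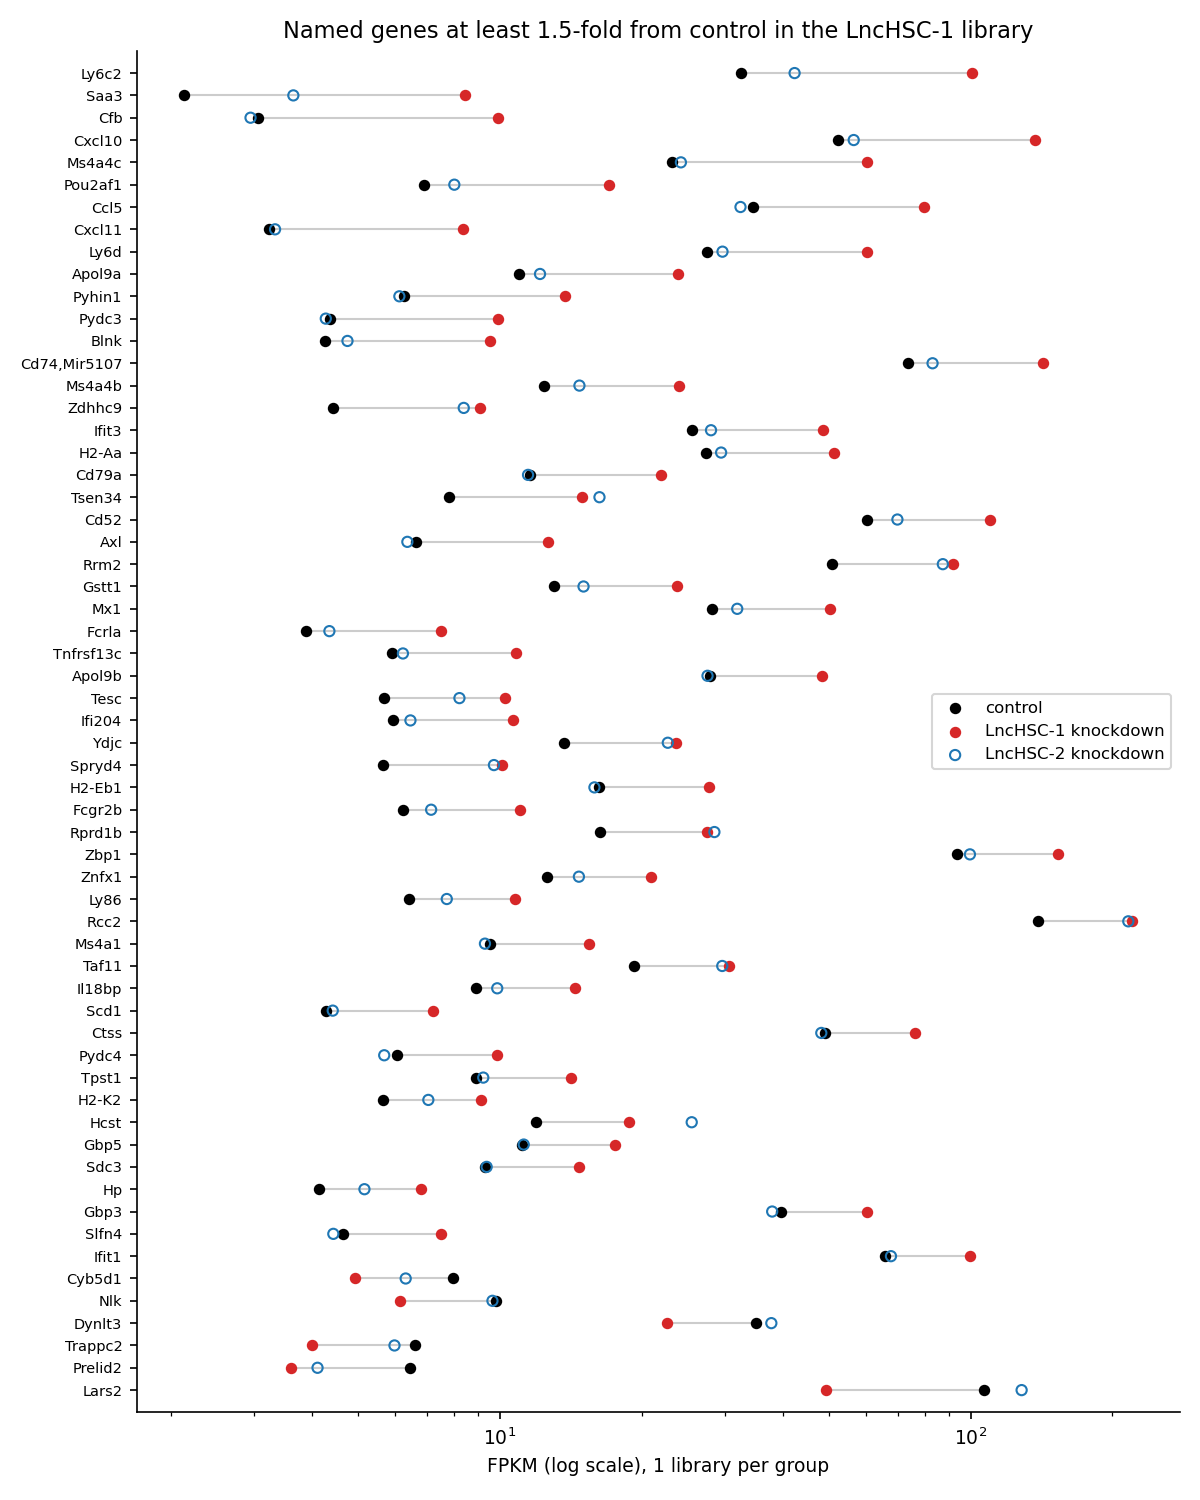
FPKM on a log axis in the control (black), LncHSC-1 (red) and LncHSC-2 (open blue) libraries, 1 library each, for 60 of the 61 named genes at least 1.5-fold from control in LncHSC-1, ordered by log2 ratio. Most blue points lie by the black ones, and for Rrm2, Rcc2 and Tsen34 they lie by the red ones.

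Several genes past the threshold lay beside each other on the chromosome. Reading the members in chromosomal order, 8 stretches of at least 2 consecutive members were all at least 1.5-fold higher, and 3 stretches held 3 or more. Among the 8 was a pair of unnamed models, HNG_027023 and HNG_027034, spread over 2311 kb. The pair had 0 reads in control and 0.865 and 1.87 estimated reads in LncHSC-1. These stretches, and the clusters plotted, were picked out after their values were seen. The stretch with the most members, 7, lay in the PYHIN cluster of cytosolic DNA sensors on chromosome 1. Over the whole cluster, from Aim2 to Ifi205 (mm9, 175350735 to 175961886), 7 of 10 members were past 1.5-fold and the median was 0.71. Aim2, Mndal and Ifi203, on either side of the stretch, were at 0.08, 0.22 and 0.09. Pyhin1 stood at 6.26, 13.8 and 6.12 FPKM in control, LncHSC-1 and LncHSC-2, and Pydc3 at 4.36, 9.91 and 4.27, each with a log2 ratio of 1.03. Ifi204 and Pydc4 were at 0.75 and 0.63.

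In the Ifit cluster on chromosome 19, 4 of 5 members were past 1.5-fold and the fifth, Ifit2, was at 0.45. Gm14446, named Ifit1bl1 in RefSeq, stood at 7.64, 17.5 and 7.0 FPKM (log2 ratio 1.10). The Ms4a cluster on the same chromosome held Ms4a1, Ms4a4c and Ms4a4b as a stretch, with Ms4a4b at 12.4, 24.1 and 14.8 FPKM. Members of these clusters are related by sequence, and the way shared reads were counted remains not given in the sources used here. At the Ly6 cluster on chromosome 15, Ly6d and Ly6c2 at the ends of the plotted window were past 2-fold, while Ly6e and Ly6a between them were at 0.32 and 0.26.

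Cxcl10 with Cxcl11 and Apol9a with Apol9b made up further stretches of 2. For the remaining 5 genes past 2-fold, the nearest named members on either side were within 1.5-fold of control. These neighbours lay from 0.002 kb (Rdbp) to 703 kb (Fdx1) away. Genes under the floor were passed over, such as C2 beside Cfb, with 15 reads in control and 39 in LncHSC-1. The neighbours of Ccl5, Taf15 and Ccl9, were at -0.06 and 0.07. Those of Cfb, Rdbp and Zbtb12, were at 0.11 and -0.02, and those of Pou2af1, Sik2 and Fdx1, at -0.08 and 0.08. Zfp518a and Tm9sf3, beside Blnk, were at -0.07 and -0.15, and Saal1 and Hps5, beside Saa3, at -0.13 and -0.17.

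**Figure D5:**
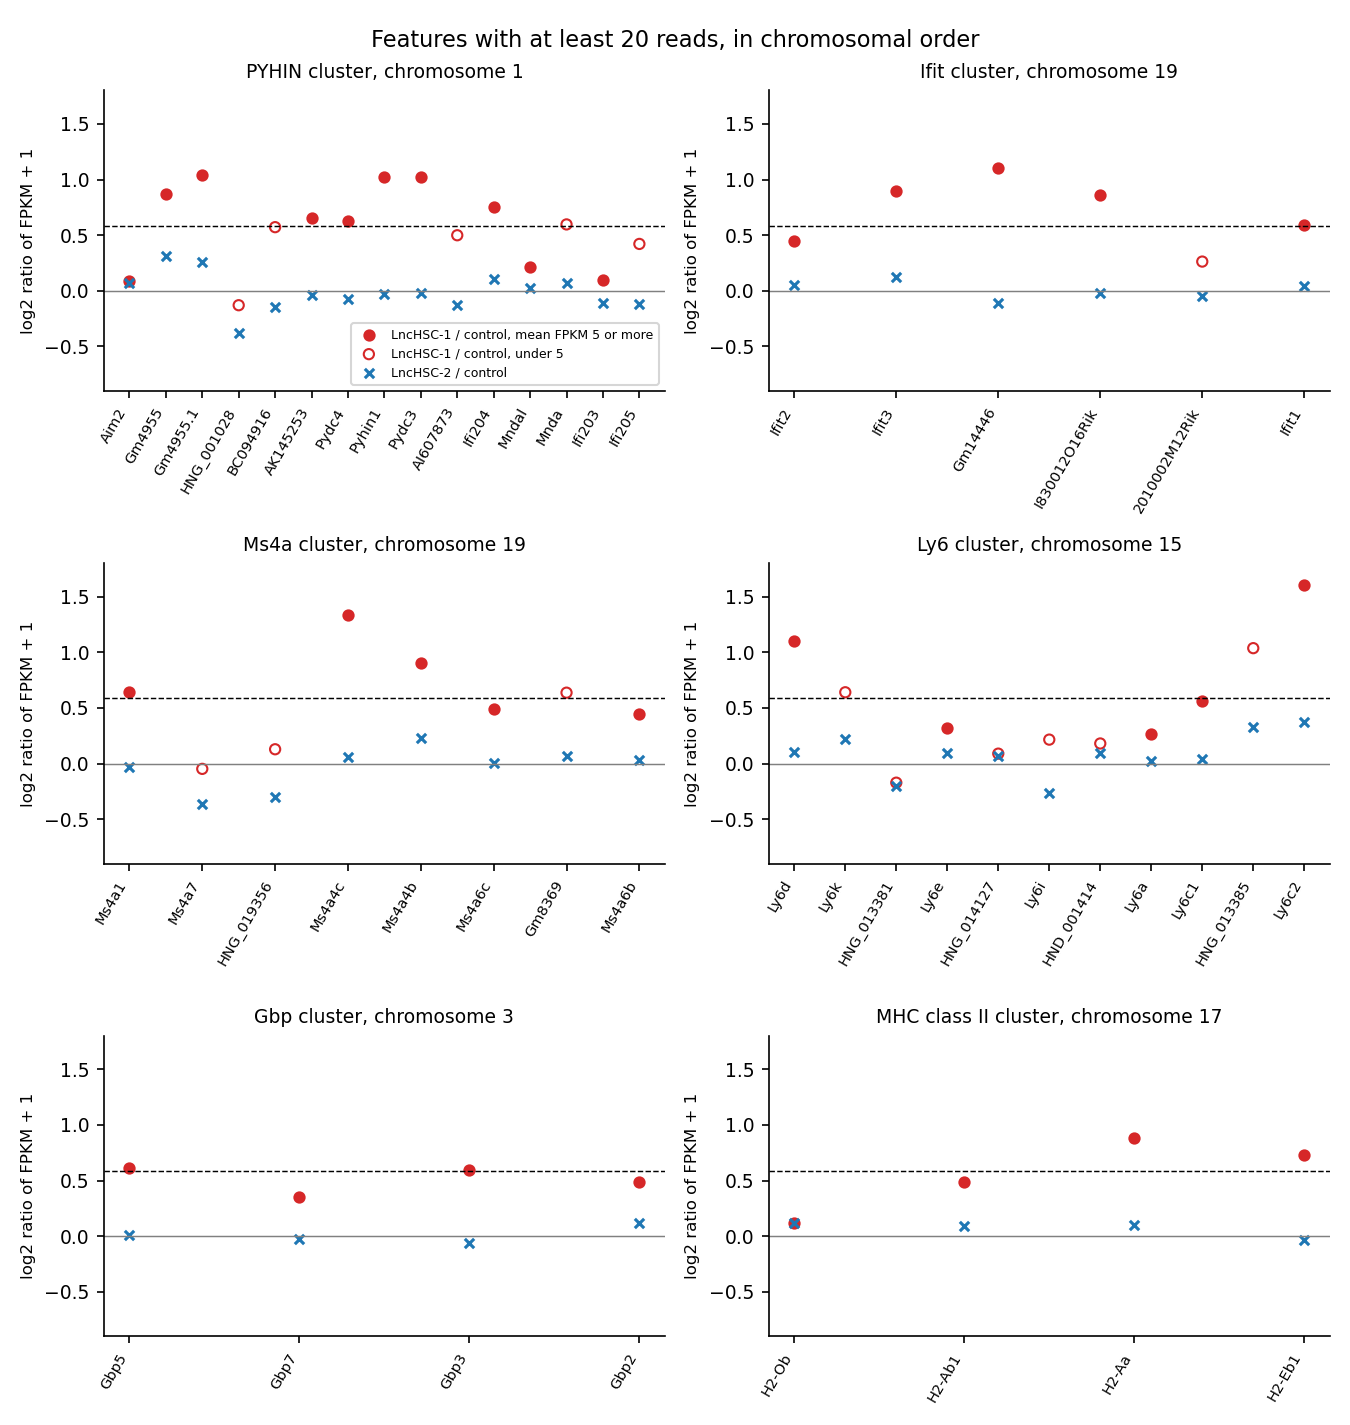
Log2 ratio of FPKM + 1 of features with at least 20 reads in 6 gene clusters, in chromosomal order: LncHSC-1 over control in red (filled for a mean of at least 5 FPKM, open below) and LncHSC-2 over control as blue crosses; both share the control library. The dashed line marks 1.5-fold. In the PYHIN cluster 7 filled red points lie above it, and Aim2, Mndal and Ifi203 lie below, at 0.08, 0.22 and 0.09.

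For 10 of the 55 higher genes the LncHSC-2 value lay nearer to LncHSC-1 than to control, on the log2 scale. Ratios of both knockdown libraries use the same control library. Rrm2, a subunit of ribonucleotide reductase, stood at 50.9 FPKM in control, 91.5 in LncHSC-1 and 87.3 in LncHSC-2. Rcc2, a regulator of chromosome condensation, stood at 139, 220 and 216 FPKM. Tsen34, a tRNA splicing subunit, stood at 7.80, 15 and 16.3 FPKM. The others were Hcst, Rprd1b, Spryd4, Taf11, Tesc, Ydjc and Zdhhc9. Over these 10 genes the log2 ratio of LncHSC-1 to LncHSC-2 ran from -0.42 to 0.29, and over the other 45 it ran from 0.33 to 1.47 with a median of 0.70. None of the interferon, B lineage or MHC class II genes was among the 10.

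On the lower side the 6 named genes past 1.5-fold were Lars2, Prelid2, Trappc2, Dynlt3, Nlk and Cyb5d1. Lars2, the mitochondrial leucyl-tRNA synthetase, stood at 107 FPKM in control, 49.2 in LncHSC-1 and 128 in LncHSC-2 (log2 ratio -1.10, interval -1.17 to -1.07). The other 13 mitochondrial synthetases lay between -0.22 for Pars2 and 0.11 for Aars2. An unnamed feature with the same bounds as Lars2, HAG_042880 (mm9 chromosome 9, 123276058 to 123371782), stood at 514, 205 and 611 FPKM. How reads were divided between the pair is uncertain.

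The feature Rn45s, which stands for the ribosomal RNA precursor, stood at 470 FPKM in control, 109 in LncHSC-1 and 493 in LncHSC-2 (log2 ratio -2.10). It took 0.321%, 0.0756% and 0.336% of estimated reads. The libraries were polyA-selected, a step that depletes ribosomal RNA. Unnamed features that were low in the same library included HND_003089 at 5776, 1240 and 5802 FPKM and HNG_038663 at 540, 167 and 600, which were 490, 131 and 419 reads and 161, 59.6 and 156 reads. The part of ribosomal RNA in the Lars2 value was not tested. Dynlt3, a dynein light chain, stood at 35, 22.6 and 37.7 FPKM, and Nlk, a kinase that restrains Wnt signalling, at 9.79, 6.13 and 9.65, both low in LncHSC-1 alone. Prelid2, Trappc2 and Cyb5d1 each rested on 122 reads or fewer per library.

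Stem cell, DNA replication and mitosis genes lay close to control. Of 34 stem cell members 18 were higher and 16 lower, none past 1.5-fold, with a median of 0.04. Egr1, which holds stem cells at rest, was farthest, at 14.0, 19.7 and 17 FPKM (log2 ratio 0.47), followed by Ly6a at 0.26 and Gata2, needed for stem cell survival, at 0.22. Kit, Msi2 and Bmi1 were at -0.19, -0.18 and -0.17. DNA replication genes leaned the other way: 38 of 44 were lower, beside 56.8% of named genes, with a median of -0.11. Ccne2 and Hells were lowest, at -0.29 and -0.28, and no replication gene was 1.5-fold lower.

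Mitosis genes were lower in 30 of 40 members, beside 56.8% of named genes, with a median of -0.08 and none past 1.5-fold. Ect2, which starts cytokinesis, and Cenpa, the centromeric histone, were each at -0.31, while the kinase gene Aurka was at 0.13. The proliferation antigen gene Mki67 stood at 67.3, 66.4 and 66.2 FPKM in control, LncHSC-1 and LncHSC-2, and was chosen after its values were seen. Both lists therefore lay within a narrow band, apart from Rrm2. Replication-dependent histone genes, whose transcripts largely lack a polyA tail, were on the higher side in both knockdown libraries. The 2 members above the floor, Hist1h4i and Hist1h2bc, were at 0.44 and 0.28. The 30 under it held 183, 384 and 289 reads in control, LncHSC-1 and LncHSC-2, a pooled ratio of LncHSC-1 to control of 0.84 on the log2 scale (interval 0.59 to 1.11), and Hist1h1c alone accounted for 95, 218 and 169 of them.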

How the data were processed

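RNA-seq tables of 3 KSL libraries (control, LncHSC-1 and LncHSC-2 knockdown, 1 library each) were used; the 2 granulocyte libraries were not analysed here. Per the labels' protocols RNA was polyA-selected. Per the submitters' processing notes the build is mm9 and DESeq was used; the aligner, annotation release and handling of multi-mapped reads stay not given in the sources used here. FPKM values were used as deposited by the authors. The deposited count columns hold non-whole values and were treated as a signal: reads times 1 factor per library. That factor, the commonest low value, was 1.08, 0.924 and 1.03. Dividing by it left 91.7% to 92.1% of values under 20 reads whole within 0.1, and gave estimated depths of 21.0, 24.1 and 19.9 M reads.

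Tables were joined by feature name. The log2 ratio of FPKM + 1 was taken for features with a mean of at least 5 FPKM in the LncHSC-1 and control libraries. With 1 library per group no test of conditions was possible and no p-value is given. Intervals are exact binomial (95%) on estimated reads at a relative depth of 1.17 (LncHSC-1 over control, reads per FPKM). They cover counting error only, and fragments without molecular identifiers are not independent molecules. The calculation was tested on simulated data. Gene lists were matched by symbol and listed alias. Members and lists were chosen with earlier results of these data known. Named are genes past 1.5-fold, up to 6 members of each list farthest from control, cell markers, overlapping features, and neighbours of genes past 2-fold; any other name (the ends of a list's range, regulators, early B cell genes, Mki67, immunoglobulin features, clusters) was picked after its value was seen. The values of 1 gene past 1.5-fold are not reported here. Promoters were RefSeq windows (GRCm38.p6) matched by symbol; no coordinates were converted between builds. Python 3.11.15, pandas 2.3.3 and scipy 1.17.1 were used. Alternatives were a pseudocount of 0.1 or 5 FPKM, a floor of 1 or 20 FPKM, a mean deposited count of at least 50, FPKM or count values centred on the median, the count columns with a pseudocount of 10, and the LncHSC-2 library as comparator.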

Additional observations from a re-analysis of the deposited data

How the results depend on the processing

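No paired analysis was possible because each group is 1 library. With centred FPKM and in the count columns, centred or not, all of the 61 named genes past 1.5-fold kept their direction. Another pseudocount, floor or count minimum cannot turn the direction of a ratio, so those settings do not test it. With a pseudocount of 5 FPKM 32 of the 61 stayed past 1.5-fold, and a floor of 20 FPKM kept 22 of them. Against the LncHSC-2 library 59 passed the floor, 56 kept their direction and 39 stayed past 1.5-fold, while Hcst, Rprd1b and Tsen34 turned to -0.42, -0.054 and -0.11. Named genes at least 1.5-fold higher numbered 31 with a pseudocount of 5 FPKM, 100 with a floor of 1 FPKM and 20 with a floor of 20 FPKM. Those at least 1.5-fold lower numbered 10 with a pseudocount of 0.1, 1 with a pseudocount of 5, 13 and 2 with floors of 1 and 20, and 3 against LncHSC-2. At least 2-fold higher were 5 with a pseudocount of 5 and 5 with a floor of 20, and 4 were 2-fold lower with a floor of 1. Over all features the higher count was 90 with a pseudocount of 5, 296 and 42 with floors of 1 and 20, and 79 with a mean deposited count of at least 50. The lower count was 180 and 25 with those floors, 27 with that count minimum, 37 in the count columns and 34 in the centred count columns. A lower floor tests more features and a higher one fewer.

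The B lineage median was 0.91 and 0.50 with pseudocounts of 0.1 and 5, 0.74 with a floor of 1, 0.90 in the count columns, 0.92 in the centred ones and 0.68 against LncHSC-2. It was 0.29 with a floor of 20, which kept 5 of its 11 members. The MHC class II median was 0.38 with a pseudocount of 5, 0.63 with a floor of 20 and 0.34 against LncHSC-2. The interferon median was 0.28 with a pseudocount of 5, 0.32 with centred FPKM, 0.33 in centred counts and 0.27 against LncHSC-2. The stem cell median moved around 0, at 0.032, 0.062, 0.065 and 0.031 under the same 4 settings, and at -0.0085 and -0.043 with floors of 1 and 20. DNA replication was at -0.099, -0.089 and -0.091 with a pseudocount of 5, centred FPKM and centred counts, and mitosis at -0.063 in both centred forms. Each group is 1 library, so the spread between cultures is unknown.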

Other observations

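Further gene groups are given here as values of the same log2 ratio. Megakaryocyte and platelet genes were higher in 13 of 16 members, beside 43.2% of named genes, with a median of 0.21, and the LncHSC-2 library had a median of 0.18 against the same control. Pf4, platelet factor 4, stood at 356 FPKM in control, 467 in LncHSC-1 and 438 in LncHSC-2, and Itgb3, the platelet fibrinogen receptor chain, at 62.1, 80.3 and 76.9. The 4 defining megakaryocyte markers summed to 491, 633 and 607 FPKM. Immediate early genes had a median of 0.16 over 14 members and none past 1.5-fold, with Egr1 and Jund at 0.47 and 0.39.

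Several groups lay near the median of all named genes. NF-kappaB pathway genes had a median of 0.08 over 21 members, p53 targets 0.01 over 24 and cholesterol synthesis genes 0.02 over 26, where Scd1, a fatty acid desaturase, was the 1 gene past 1.5-fold, at 4.27, 7.22 and 4.42 FPKM. The 12 RNA interference factors, some of which process the hairpins of knockdown vectors, had a median of -0.09, with Dicer1 at 0.05 and Prkra at -0.19. Over 73 genes of cytoplasmic ribosomal proteins the median was -0.03.

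Other higher genes fell in none of the lists. Axl, a receptor kinase that dampens innate responses, stood at 6.64 FPKM in control, 12.6 in LncHSC-1 and 6.36 in LncHSC-2. Cd52, a lymphocyte surface glycoprotein, stood at 60.2, 110 and 69.9, and Il18bp, the decoy for interleukin 18, at 8.9, 14.5 and 9.87. Sdc3, a syndecan, stood at 9.29, 14.7 and 9.4, and Znfx1, a helicase that senses viral RNA, at 12.6, 20.9 and 14.7.

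Of the 18 genes of the chemokine and complement receptor list, which holds lymphoid and myeloid receptors, 16 lay under the floor. The 16 receptor genes there held 1079 reads in control, 1725 in LncHSC-1 and 1061 in LncHSC-2, a pooled ratio of 0.46 on the log2 scale (counting interval 0.34 to 0.57). Cxcr5, which guides B cells to follicles, was at 1.22, 3.05 and 1.85 FPKM (log2 ratio 0.87). Ccr2 and C3ar1, with 264 and 249 reads in control, were at log2 ratios of 0.07 and 0.08, so the pooled ratio was not shared by all 16.

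Prg2, the major basic protein of eosinophils, also lay under the floor, with 92 reads in control and 9 in LncHSC-1. It stood at 5.37, 0.45 and 4.15 FPKM, the reverse of most differences above. The basophil marker Mcpt8 was at 104 and 106 reads.

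Of the 459 unnamed transcript models, 65 were at least 1.5-fold higher and 59 lower. Among the 186 of them with a mean deposited count under 50, 94 were past 1.5-fold in either direction, so few reads stand behind most of that scatter.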
